A study of Homo sapiens with 9 samples.

Results

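RNA of 10 genes for catalytic, scaffold and regulatory subunits of protein phosphatase 2A (PP2A) was followed in MDA-MB-231 cells. The samples covered 3 conditions of medium viscosity and TRPV4 knockdown. The genes were PPP2CA and PPP2CB (catalytic), PPP2R1A and PPP2R1B (scaffold), PPP2R2A and PPP2R2C (regulatory, B55 family), and PPP2R5A, PPP2R5C, PPP2R5D and PPP2R5E (regulatory, B56 family). They were chosen by name among the 60664 genes in the counts, and all 10 were among the 18264 genes with enough counts to be tested. They are not all PP2A subunit genes of these cells. Other expressed regulatory subunits, such as PPP2R2D, PPP2R5B and the striatins, are outside this set and are taken up below. Among the 10, the largest differences lay in regulatory subunits. PPP2R2C was lower at 8 cP than at 0.77 cP and lower again in the knockdown cells, whereas PPP2R5E was higher at 8 cP and lower in the knockdown cells than in either control group. PPP2CA and PPP2R1B were higher in both groups at 8 cP than at 0.77 cP, by 12.1 to 22.1%. PPP2R1A, PPP2CB, PPP2R2A, PPP2R5C and PPP2R5D did not pass the test in any comparison. Of the viscosity calls in SC cells, that of PPP2R1B held in all 9 fits that left out 1 sample. Those of PPP2CA, PPP2R5E and PPP2R2C held in 6, 6 and 5 of them.

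PP2A removes phosphate groups from serine and threonine residues of many proteins. Its core enzyme is a catalytic C subunit bound to a scaffold A subunit, and each of these exists as an alpha and a beta form encoded by separate genes. A regulatory B subunit binds this core and sets which substrates are reached and where in the cell, so that the choice among B subunits gives 1 core enzyme many functions. B55 subunits are known for their part in mitotic exit, B56 subunits for their part at centromeres and in growth factor signalling, and striatins, a further class of B subunit, place PP2A in the STRIPAK complex, which acts on the kinases of the Hippo pathway.

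MDA-MB-231 is a human breast cancer cell line without estrogen and progesterone receptors. Cells with a scramble control hairpin (SC) were kept either in baseline medium of 0.77 cP or in viscous medium of 8 cP, and cells with a short hairpin RNA against TRPV4 (shTRPV4), a calcium-permeable ion channel of the plasma membrane, were kept in viscous medium only. Each of these 3 groups had 3 samples, collected on day 6. In the study's methods both lines were made by lentiviral transduction with the pLKO.1 puro backbone and kept in puromycin, the scramble line carrying a non-targeting sequence, and viscosity was raised by methylcellulose in the medium. The methods name a single hairpin for this kind of experiment, so that loss of TRPV4 and other effects of the hairpin or of the transduced line cannot be told apart. No sample held knockdown cells at 0.77 cP, so whether the knockdown changed the response to viscosity could not be tested. The 3 comparisons share their groups, so that they are not independent of each other.

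Library totals ran from 64571681 to 103518036 counts. TRPV4 itself had 40, 28 and 54 counts in SC cells in baseline medium, 64, 45 and 24 in SC cells in viscous medium, and 7, 1 and 13 in shTRPV4 cells. From SC to shTRPV4 cells in viscous medium its log2 fold change was -2.51 (SE 0.49, edgeR adjusted p = 0.00219). VIM, CD44 and EGFR, markers of this mesenchymal-like line, were abundant, and ESR1, PGR and CDH1 had at most 12 counts in any sample. Among markers of other cell types, PTPRC, CD3E, CDH5 and DCN had at most 17 counts, while COL1A1 (331 to 650 counts), PDGFRB (345 to 625) and PECAM1 were present. PECAM1 had a mean of 5.04 CPM in SC cells in baseline medium, 2.75 in SC cells in viscous medium and 2.18 in shTRPV4 cells, and its part in the results was not tested. The labels do not say whether replicates were separate cultures, so p-values measure the spread between these samples.

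Levels are given as CPM, the count of a gene relative to the library total, here after scaling by edgeR's TMM method. A CPM is a share of a sample's RNA, so that fewer cells with a transcript and less of it in each cell cannot be told apart. Fold changes are on the log2 scale, with their standard error (SE), and a gene is said to have risen or fallen where the adjusted p of edgeR's quasi-likelihood test, over all 18264 genes, was below 0.05. Raising viscosity from 0.77 to 8 cP changed 4 of the 10 subunit genes in SC cells, against 19.3% of all genes tested. PPP2R1B, PPP2R5E and PPP2CA rose (3 of 10; 9.57% of all genes rose) and PPP2R2C fell (1 of 10; 9.69% of all genes fell). In shTRPV4 cells against SC cells in viscous medium, PPP2R2C, PPP2R5E and PPP2R5A fell (3 of 10; 11.0% of all genes). In this comparison 20.0% of all genes were called and 9.02% rose, whereas 0 of the 10 rose by edgeR, 0 at an unadjusted p below 0.05 and 0 by DESeq2. Between shTRPV4 cells and SC cells in baseline medium, 5 of the 10 were called against 42.4% of all genes, with PPP2R1B and PPP2CA higher (20.4% of all genes) and PPP2R2C, PPP2R5E and PPP2R5A lower (22.0% of all genes). Because the 10 were chosen with earlier results of these data known, these counts do not measure enrichment. Of 8 other PP2A regulatory subunit genes tested, 1, 0 and 2 were called in the 3 comparisons, in the same order.

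Most of these differences were small. The median of the absolute log2 fold change over the 10 genes was 0.03 for viscosity in SC cells, 0.08 for shTRPV4 cells against SC cells in viscous medium and 0.12 for shTRPV4 cells against SC cells in baseline medium. Over all genes tested it was 0.15, 0.15 and 0.23. The count for viscosity in SC cells depended on single libraries, as it was 1 without replicate 1 of SC cells in baseline medium, 2 without replicate 2 of that group and 1 without replicate 3 of SC cells in viscous medium. The number called over all genes went from 3518 to 1409, 1927 and 1418 in the same fits.

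**Figure D1:**
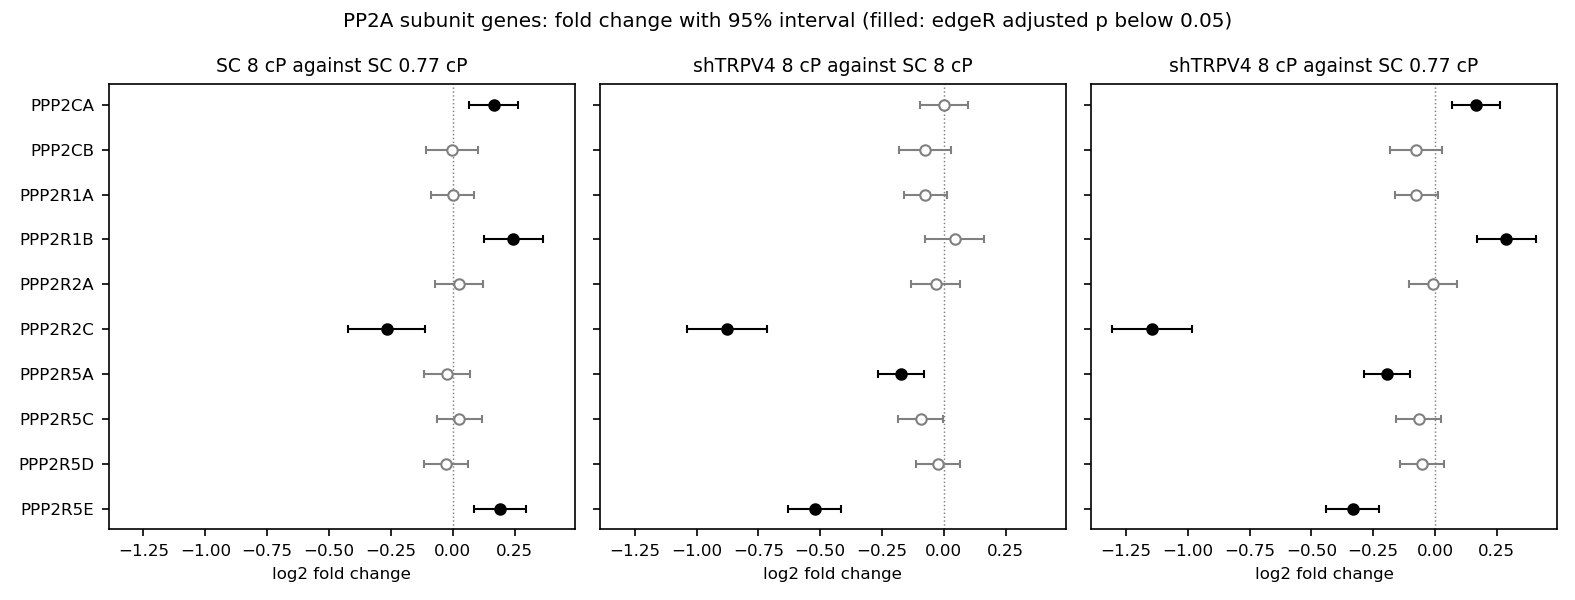
Log2 fold change of each of the 10 subunit genes (vertical axis) in the 3 comparisons, with bars for the 95% interval and filled points where the edgeR adjusted p was below 0.05. PPP2R2C lies farthest to the left in each comparison that involves shTRPV4 cells, at -0.88 and -1.14, and PPP2R5E lies to the right for viscosity (0.19) and to the left for the other comparisons (-0.52 and -0.33).

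Of the catalytic subunits, PPP2CA rose with viscosity in SC cells and PPP2CB did not pass the test. PPP2CA, which encodes the alpha form of the catalytic subunit (chr5:134194035-134226073, minus strand, GRCh38), had 184, 204 and 202 CPM in replicates 1 to 3 of SC cells in baseline medium. In SC cells in viscous medium it had 217, 224 and 220.2 CPM, and in shTRPV4 cells 217, 220.1 and 224 CPM. Every sample at 8 cP lay above every sample at 0.77 cP, and the groups at 8 cP overlapped. PPP2CA thus rose by 12.2% in SC cells in viscous medium (log2 fold change 0.17, SE 0.05, edgeR adjusted p = 0.0214) and was higher by 12.1% in shTRPV4 cells than in SC cells in baseline medium (adjusted p = 0.00909). Between the groups at 8 cP its log2 fold change was -0.00, with a 95% interval of -0.10 to 0.10. The rise with viscosity was no longer called without replicate 1 of SC cells in baseline medium or without replicate 2 or 3 of SC cells in viscous medium (adjusted p = 0.0984, 0.0642 and 0.0667). Exons of PPP2CA share 1797 bases with other annotated genes on the same strand, and how reads there were assigned is not stated.

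PPP2CB encodes the beta form (chr8:30774457-30814314, minus strand), whose protein is nearly identical to the alpha form. Its level was 98.3, 105 and 103.5 CPM in SC cells in baseline medium, 101, 103.5 and 102 CPM in SC cells in viscous medium, and 90.3, 101 and 99.9 CPM in shTRPV4 cells. The groups overlapped apart from shTRPV4 cells against SC cells in viscous medium, where the log2 fold change was -0.08 (95% interval -0.18 to 0.03, adjusted p = 0.312). For viscosity in SC cells it was -0.00 (-0.11 to 0.10), an interval that overlaps that of PPP2CA (0.07 to 0.26). The difference between the 2 fold changes was not tested.

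Of the scaffold subunits, PPP2R1B rose with viscosity in SC cells and PPP2R1A did not pass the test. PPP2R1A, the alpha form (chr19:52170936-52229518, plus strand), was the most abundant of the 10 genes in CPM. Its values were 284.5, 292 and 298 CPM in SC cells in baseline medium, 297, 289 and 288 CPM in SC cells in viscous medium, and 281, 270.4 and 279 CPM in shTRPV4 cells. All 3 shTRPV4 samples lay below all 6 SC samples, but the difference of -0.07 from SC cells in viscous medium (SE 0.04) was not called (edgeR adjusted p = 0.224). For viscosity in SC cells the log2 fold change was -0.00 (95% interval -0.09 to 0.09).

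PPP2R1B encodes the beta form of the scaffold (chr11:111726908-111766389, minus strand), which shares 150 exon bases with SIK2 on the other strand. It had 52.4, 52.4 and 58.6 CPM in SC cells in baseline medium, 64.6, 63.3 and 65.9 CPM in SC cells in viscous medium, and 70.5, 66.9 and 62.3 CPM in shTRPV4 cells. All samples at 8 cP were above all samples at 0.77 cP, with overlap between the 2 groups at 8 cP. The rise with viscosity in SC cells was 18.5% (log2 fold change 0.24, SE 0.06, edgeR adjusted p = 0.00801), and it was called in 9 of the 9 fits that left out 1 sample. From SC cells in baseline medium to shTRPV4 cells the difference was 22.1% (adjusted p = 0.000688). Between shTRPV4 cells and SC cells in viscous medium it was 3.06% (log2 fold change 0.04, 95% interval -0.08 to 0.16, adjusted p = 0.642).

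**Figure D2:**
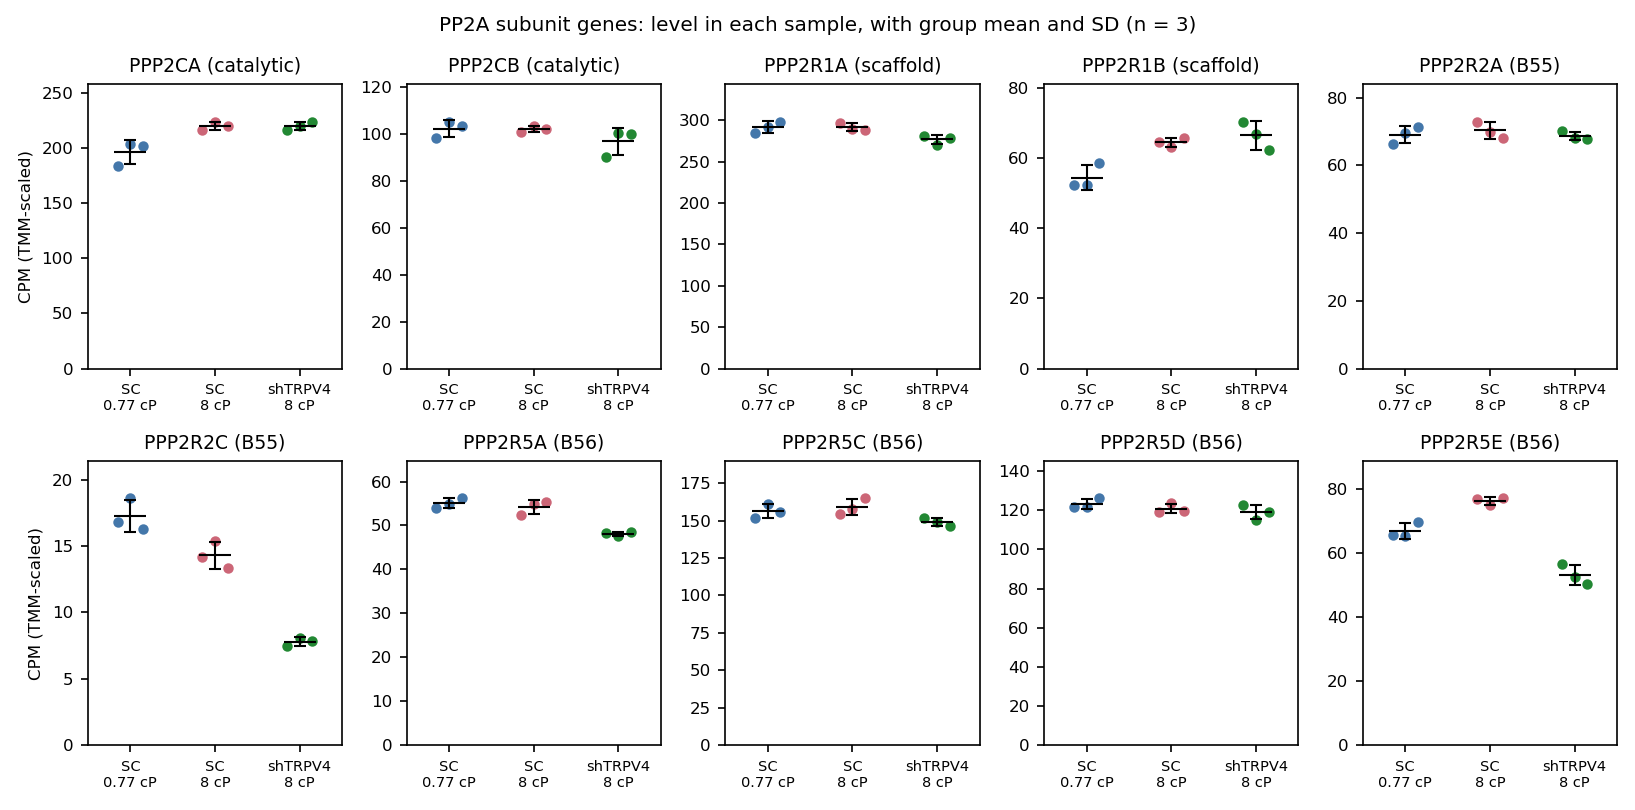
Level of each of the 10 PP2A subunit genes in CPM (vertical axis, starting at 0, with a scale of its own for each gene) in the 3 samples of each group, shown as points with the group mean and SD (n = 3). PPP2R2C steps down from 17.2 to 14.3 and 7.80 CPM, PPP2R5E goes from 66.8 to 76.3 and 53.1 CPM, and PPP2CA and PPP2R1B are higher in both groups at 8 cP.

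Of the B55 regulatory subunits, PPP2R2C carried the largest change of the whole set. It encodes the gamma form of B55, known mainly from the brain (chr4:6320578-6563600, minus strand). A promoter window of this gene is shown because its RNA differed most between the groups, with matches to GGGCGG or its reverse complement, the binding motif of SP and KLF factors, in capitals. The window, from RefSeq on GRCh38.p14, is chr4:6563750-6564049 on the minus strand, and is the first listed of 5 windows for the gene.
PPP2R2C: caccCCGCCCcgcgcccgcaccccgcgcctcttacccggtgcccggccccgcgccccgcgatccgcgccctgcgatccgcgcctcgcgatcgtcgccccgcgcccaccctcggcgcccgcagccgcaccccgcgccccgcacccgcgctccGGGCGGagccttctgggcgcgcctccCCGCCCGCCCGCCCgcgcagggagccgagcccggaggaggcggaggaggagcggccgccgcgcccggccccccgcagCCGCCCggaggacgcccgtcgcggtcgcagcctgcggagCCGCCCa
Its GC content was 85.3%, against a median of 58.7% over all promoter windows, and it held 7 matches to GGGCGG.

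PPP2R2C had 16.8, 18.6 and 16.3 CPM in SC cells in baseline medium, 14.2, 15.4 and 13.4 CPM in SC cells in viscous medium, and 7.48, 8.09 and 7.83 CPM in shTRPV4 cells. The 3 groups did not overlap in any pair. In shTRPV4 cells the level was lower by 45.5% than in SC cells in viscous medium (log2 fold change -0.88, SE 0.08, edgeR adjusted p = 1.49e-06), an absolute change above that of 95.4% of the genes tested. Against SC cells in baseline medium the log2 fold change was -1.14 (SE 0.08, adjusted p = 2.73e-08). The fall with viscosity in SC cells was smaller, at 16.9% (log2 fold change -0.27, SE 0.07, adjusted p = 0.0197), and was called in 5 of the 9 fits that left out 1 sample. It was lost without replicate 1 or 2 of SC cells in baseline medium (adjusted p = 0.0582 and 0.109) or without replicate 1 or 3 of SC cells in viscous medium (adjusted p = 0.0637 and 0.115).

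PPP2R2A, the alpha form of B55 and the major one in most tissues (chr8:26291508-26372680, plus strand), showed no difference beyond the spread. It had 66.3, 69.5 and 71.4 CPM in SC cells in baseline medium, 72.9, 69.9 and 68.1 CPM in SC cells in viscous medium, and 70.1, 68.2 and 67.7 CPM in shTRPV4 cells. The groups overlapped in every pair, and the 3 log2 fold changes of 0.03, -0.03 and -0.01 had 95% intervals within -0.13 and 0.12.

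Among the B56 regulatory subunits, PPP2R5A and PPP2R5E were lower in shTRPV4 cells than in either SC group. PPP2R5A encodes the alpha form (chr1:212285410-212361853, plus strand). Its values were 54.1, 54.95 and 56.2 CPM in SC cells in baseline medium, 52.3, 54.97 and 55.3 CPM in SC cells in viscous medium, and 48.2, 47.6 and 48.5 CPM in shTRPV4 cells. All 3 shTRPV4 samples lay below all 6 SC samples, and the SC groups overlapped. The level was lower than in SC cells in viscous medium by 11.3% (log2 fold change -0.17, SE 0.04, edgeR adjusted p = 0.0117) and lower than at 0.77 cP by 12.7% (adjusted p = 0.00202). Without replicate 2 of SC cells in viscous medium or replicate 2 of shTRPV4 cells the first of these was not called (adjusted p = 0.0582 and 0.0512). For viscosity in SC cells the 95% interval was -0.12 to 0.07.

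PPP2R5E, the epsilon form, moved in opposite directions with viscosity and with the knockdown (chr14:63371364-63543377, minus strand). Its promoter window is shown for the same reason as that of PPP2R2C, with matches to GGGCGG and to CCAAT, the CCAAT box bound by NF-Y, in capitals on either strand. It is the first listed of 2 windows, at chr14:63543328-63543627 on the minus strand.
PPP2R5E: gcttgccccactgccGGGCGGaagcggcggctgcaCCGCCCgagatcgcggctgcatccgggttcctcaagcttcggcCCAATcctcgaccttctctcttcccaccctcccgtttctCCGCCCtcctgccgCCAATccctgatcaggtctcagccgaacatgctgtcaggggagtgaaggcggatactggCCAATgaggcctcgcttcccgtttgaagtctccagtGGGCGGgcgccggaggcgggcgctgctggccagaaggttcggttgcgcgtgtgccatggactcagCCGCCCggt
This window had a GC content of 67%, with 5 matches to GGGCGG and 3 to CCAAT.

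PPP2R5E had 65.4, 65.3 and 69.7 CPM in SC cells in baseline medium, 76.9, 74.8 and 77.1 CPM in SC cells in viscous medium, and 56.5, 52.5 and 50.3 CPM in shTRPV4 cells. No group overlapped another. The rise with viscosity in SC cells was 14.1% (log2 fold change 0.19, SE 0.05, edgeR adjusted p = 0.0155). In shTRPV4 cells the level was lower than in SC cells in viscous medium by 30.4% (log2 fold change -0.52, SE 0.05, adjusted p = 3.92e-06), and this change was larger in size than that of 87.5% of the genes tested. Knockdown cells at 8 cP also lay below SC cells in baseline medium, with a log2 fold change of -0.33 (SE 0.05, adjusted p = 8.29e-05). Both differences of the shTRPV4 cells were called in all 9 fits without 1 sample, whereas the rise with viscosity was lost without replicate 1 or 2 of SC cells in baseline medium or replicate 3 of SC cells in viscous medium (adjusted p = 0.0659, 0.0576 and 0.0581).

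PPP2R5C and PPP2R5D, the gamma and delta forms, did not pass the test. PPP2R5C (chr14:101761709-101927989, plus strand) had 152, 161 and 156 CPM in SC cells in baseline medium, 154, 158 and 165 CPM in SC cells in viscous medium, and 152, 149 and 147 CPM in shTRPV4 cells. Its shTRPV4 samples were all below both SC groups, and the difference of -0.09 from SC cells in viscous medium (SE 0.04) had an unadjusted p of 0.0466 in edgeR and an adjusted p of 0.147. PPP2R5D (chr6:42984553-43012342, plus strand) had 122, 122 and 126 CPM in SC cells in baseline medium, 119, 124 and 119.5 CPM in SC cells in viscous medium, and 123, 115 and 119 CPM in shTRPV4 cells. The groups of PPP2R5D overlapped in every pair, with log2 fold changes of -0.03, -0.02 and -0.05. Of its exon bases, 1194 overlap MEA1 on the other strand, and the strand setting of the counting is not stated.

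Levels of different genes can be compared only per length. Divided by the bases in all annotated exons of a gene, the means over the 9 samples ranged from 32.7 CPM per kb for PPP2CA to 1.40 for PPP2R2C. Below PPP2CA came PPP2R5D (32.0), PPP2R1A (27.7), PPP2CB (22.3), PPP2R5A (13.3), PPP2R5C (10.8), PPP2R1B (9.25), PPP2R2A (7.90) and PPP2R5E (7.12). The ranges over the 9 samples of PPP2CA overlapped those of PPP2R5D and PPP2R1A, and PPP2R5C overlapped PPP2R1B, PPP2R1B overlapped PPP2R2A and PPP2R2A overlapped PPP2R5E. PPP2R2C, between 0.798 and 1.99 CPM per kb, stood below all others. The order depends on which exons a cell uses, since dividing by the length of the canonical transcript put PPP2CB (51.7) above PPP2CA (46.3) and raised PPP2R5C to 33.4.

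The composition of each subunit class was then compared as the share of a gene in the reads per kb of its class, with an exact permutation test of the 3 groups over 1680 assignments of the samples and adjustment over the 7 shares tested. The smallest p this test can give is 0.00357. A pair of groups of 3 cannot go below 0.10, so differences between pairs are given as values. Shares of a class sum to 100%, so that a rise of 1 member lowers the others.

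Within the catalytic pair the beta form lost ground at 8 cP. PPP2CB made up 43.6, 42.7 and 42.5% of the pair in SC cells in baseline medium, 40.1, 40.0 and 40.1% in SC cells in viscous medium and 37.5, 39.7 and 39.1% in shTRPV4 cells, and no 2 groups overlapped (exact permutation p = 0.00357, adjusted p = 0.005). In the scaffold pair the beta form gained. PPP2R1B went from 22.2, 21.7 and 23.3% at 0.77 cP to 25.2, 25.3 and 26.1% in SC cells in viscous medium and 27.9, 27.7 and 25.7% in shTRPV4 cells (exact permutation p = 0.00714, adjusted p = 0.00833). The groups at 8 cP overlapped in this share, and both stood above the samples at 0.77 cP.

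In the B55 pair, PPP2R2C fell from 18.9% ± 1.25 (SD, n = 3) at 0.77 cP to 16.0% ± 0.96 in SC cells in viscous medium and 9.62% ± 0.47 in shTRPV4 cells, with PPP2R2A making up the rest. Its samples ranged from 17.6 to 20.1%, from 15.4 to 17.1% and from 9.09 to 10.0%, without overlap (exact permutation p = 0.00357, adjusted p = 0.005). Counting PPP2R2B and PPP2R2D as part of the class lowered the 3 means to 12.0, 10.2 and 5.91% and left the order as it was.

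Of the 4 B56 genes, PPP2R5D held the largest share per kb of all annotated exons in every group. It was at 50.3% ± 0.38 in SC cells in baseline medium, 49.1% ± 0.78 in SC cells in viscous medium and 52.6% ± 0.52 in shTRPV4 cells. PPP2R5E took 11.3% ± 0.23, 12.8% ± 0.36 and 9.67% ± 0.42, and PPP2R5A took 21.6% ± 0.04, 21.1% ± 0.34 and 20.4% ± 0.40 (SD, n = 3). Among these 4 genes, each of these 3 shares differed between the groups, without overlap of any pair (exact permutation p = 0.00357, adjusted p = 0.005). PPP2R5B is left out of this class. Counting it gave means of 19.1, 18.9 and 17.9% for PPP2R5A (exact permutation p = 0.0107) and 44.6, 43.8 and 46.1% for PPP2R5D (p = 0.00714). Those p-values are above the smallest possible, so the separation of these 2 shares depends on which genes are counted. PPP2R5E stayed at 0.00357. The share of PPP2R5C was 16.8% ± 0.53, 17.0% ± 0.46 and 17.4% ± 0.29, a range of 0.554 percentage points between group means that the test did not call (exact permutation p = 0.332). The ranking of PPP2R5C and PPP2R5D depends on the length used. By counts not divided by length, PPP2R5C held 38.9, 38.8 and 40.4%, above 30.7, 29.5 and 32.2% for PPP2R5D. By canonical transcript length PPP2R5C held 33.0, 33.3 and 33.9%, and PPP2R5D 40.6, 39.4 and 42.1%. The share of PPP2R5D was higher in shTRPV4 cells although its own CPM was not called, while PPP2R5A and PPP2R5E fell in CPM.

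**Figure D3:**
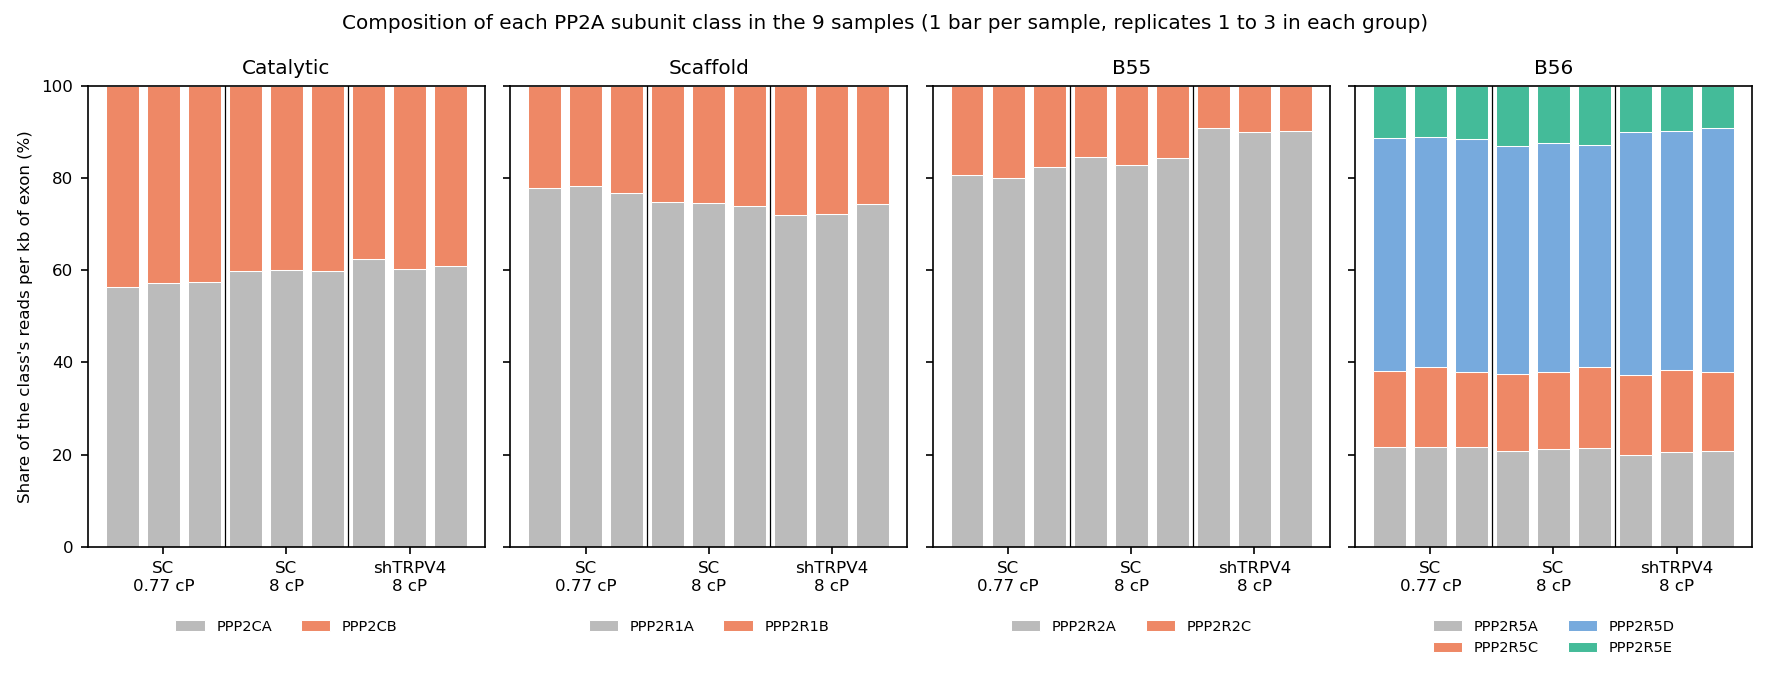
Share of each gene in the reads per kb of exon of its class (vertical axis, %), with 1 stacked bar for each of the 9 samples and 1 panel for each subunit class. The PPP2R2C part of the B55 bar shrinks from between 17.6 and 20.1% in SC cells in baseline medium to between 9.09 and 10.0% in shTRPV4 cells, and the PPP2R5E part of the B56 bar is widest in SC cells in viscous medium.

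The levels were also summed over each class. The catalytic pair summed to 52.9 ± 2.53, 56.6 ± 0.85 and 55.4 ± 1.78 CPM per kb in SC cells in baseline medium, SC cells in viscous medium and shTRPV4 cells (SD, n = 3), and the scaffold pair to 36.3 ± 1.16, 37.8 ± 0.49 and 36.7 ± 0.89. The B55 pair summed to 9.71 ± 0.31, 9.54 ± 0.32 and 8.66 ± 0.12, and the 4 B56 genes to 64.7 ± 1.24, 65.0 ± 0.98 and 59.8 ± 1.38. The sums of both regulatory classes were thus lowest in shTRPV4 cells, by more than the SD of any group. No test was made of these sums.

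The remaining regulatory subunits changed little. PPP2R2B had almost no counts and was not tested, which left 8 of 9 genes. STRN4, a striatin, rose with viscosity in SC cells (log2 fold change 0.14, edgeR adjusted p = 0.0379), though in 3 of the 9 fits without 1 sample. That is 1 of 8, against 19.3% of all genes called. Between shTRPV4 cells and SC cells in viscous medium, 0 of 8 were called by edgeR, against 20.0% of all genes. DESeq2 called 0 as well, against 3831 of the 17799 genes it tested. At an unadjusted p below 0.05 in edgeR there was 1, PPP2R3C (-0.13). PPP2R3A (0.23) and STRN (0.15) were higher in shTRPV4 cells than in SC cells in baseline medium, each in 6 of the 9 fits without 1 sample. These are 2 of 8, against 42.4% of all genes called.

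Of 9 genes for the inhibitors of PP2A and their kinase, 5 rose with viscosity in SC cells, against 9.57% of all genes tested. These were SET (0.25) and ANP32A (0.19), nuclear inhibitors of the catalytic subunit, CIP2A (0.27), which protects oncoproteins such as MYC from PP2A, ARPP19 (0.18), which blocks B55-bound PP2A once phosphorylated by the kinase MASTL, and BOD1 (0.14), an inhibitor of B56-bound PP2A. The other 4 did not pass the test by edgeR, and DESeq2 called 8 of the 9 higher, against 2214 of the 15121 genes it tested. SET had 553, 579 and 599 CPM in SC cells in baseline medium, 666, 689.6 and 697 CPM in SC cells in viscous medium and 690.0, 675 and 692 CPM in shTRPV4 cells. All its samples at 8 cP exceeded those at 0.77 cP, and it was called in all 9 fits without 1 sample (adjusted p = 0.00207 with all samples). The count of 5 fell to 3 without replicate 1 of SC cells in baseline medium and to 1 without replicate 3 of SC cells in viscous medium. The number rising over all genes went from 1748 to 671 and 687 in the same fits. The count of 5 became 7 without replicate 3 of SC cells in baseline medium. It was 6 without replicate 1 of SC cells in viscous medium and 8 without replicate 1 of shTRPV4 cells. In these fits 2359, 1428 and 2180 of all genes rose. The median log2 fold change of the 9 genes was 0.18, against -0.01 over all genes tested.

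Among the inhibitors, PABIR2 rose and ARPP19 and ENSA fell in shTRPV4 cells against SC cells in viscous medium. These are 3 of 9, against 20.0% of all genes called. PABIR2, which belongs to a small family of PP2A inhibitors, was at 30.5, 32.6 and 34.5 CPM in SC cells in baseline medium, 35.5, 35.6 and 38.1 CPM in SC cells in viscous medium and 57.9, 52.2 and 50.7 CPM in shTRPV4 cells. Its shTRPV4 samples stood above all others, and it rose by 47.3% against SC cells in viscous medium (log2 fold change 0.56, SE 0.06, edgeR adjusted p = 1.23e-05). ARPP19 went the other way, from 122, 123 and 125 CPM in SC cells in viscous medium to 108, 103 and 106 CPM in shTRPV4 cells (log2 fold change -0.23, SE 0.04, adjusted p = 0.00212). Both calls were made in all 9 fits without 1 sample. ENSA, the close relative of ARPP19, was lower as well (-0.14, adjusted p = 0.0339), in 5 of the 9 fits. From SC cells in baseline medium to shTRPV4 cells, 7 of the 9 rose, against 20.4% of all genes, among them PABIR2 (0.72), CIP2A (0.37) and SET (0.25), and ENSA fell (-0.12), the latter in 1 of the 9 fits without 1 sample and not by DESeq2.

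The 5 genes for assembly, methylation and activation of the catalytic subunit moved by small amounts. IGBP1, which binds the free catalytic subunit, fell with viscosity in SC cells (-0.17, edgeR adjusted p = 0.0429), in 3 of the 9 fits without 1 sample. That is 1 of 5, against 19.3% of all genes called. TIPRL (-0.17) and PTPA (-0.13), an activator of the enzyme, were lower in shTRPV4 cells than in SC cells in viscous medium (adjusted p = 0.0209 and 0.0349), in 5 and 4 of those fits. In that comparison 20.0% of all genes were called. IGBP1 and TIPRL were lower in shTRPV4 cells than in SC cells in baseline medium by edgeR, which called 42.4% of all genes there. DESeq2 called 0 of the 5 in this comparison, against 7602 of the 21148 genes it tested. LCMT1 and PPME1, which add and remove a methyl group on the catalytic subunit, did not pass the test in any comparison.

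STRIPAK partners of the striatins changed in both directions. Of 11 tested, SLMAP (0.21) and the kinase STK24 (0.24) rose and the kinase STK25 (-0.15) fell with viscosity in SC cells. These are 3 of 11, against 19.3% of all genes called. Each of the 3 was lost without replicate 3 of SC cells in viscous medium. FGFR1OP2 was lower (-0.20, edgeR adjusted p = 0.00763) and STRIP2 higher (0.29, adjusted p = 0.0361) in shTRPV4 cells than in SC cells in viscous medium, the second in 4 of the 9 fits without 1 sample. In that comparison 2 of 11 were called, against 20.0% of all genes. In shTRPV4 cells against SC cells in baseline medium, 7 of 11 were called, against 42.4% of all genes. Among them STRIP2, STK24 and SLMAP were higher and FGFR1OP2, STK25 and PDCD10 were lower, between -0.29 and 0.34 on the log2 scale.

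Of 9 catalytic subunits of related phosphatases, PPP6C (0.24) and PPP1CC (0.15) rose with viscosity in SC cells, in 8 and 5 of the 9 fits without 1 sample. These are 2 of 9, against 19.3% of all genes called (9.57% rose). PPP3CB, a catalytic subunit of calcineurin, and PPP1CB were lower in shTRPV4 cells than in SC cells in viscous medium, each by 0.26 on the log2 scale (edgeR adjusted p = 0.000403 and 0.00267), and were called in all 9 fits. In that comparison 2 of 9 were called, against 20.0% of all genes (11.0% fell). From SC cells in baseline medium to shTRPV4 cells, PPP1CC, PPP6C and PPP5C were higher and PPP1CB and PPP3CB lower. These are 5 of the 9 tested, against 42.4% of all genes called in either direction.

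**Figure D4:**
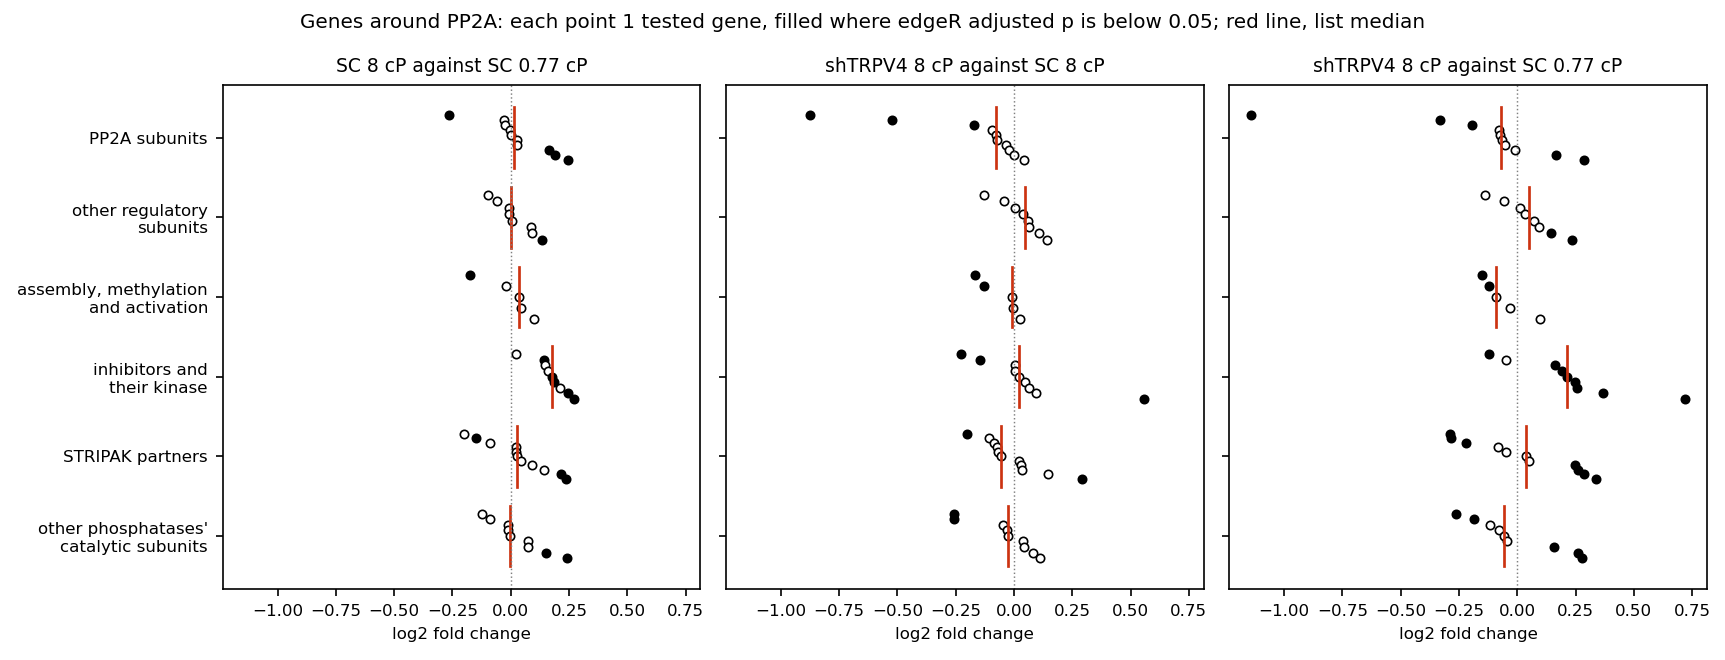
Log2 fold change (horizontal axis) of each tested gene of the 5 lists of genes around PP2A and of the 10 subunit genes in the 3 comparisons, filled where the edgeR adjusted p was below 0.05, with a red line at the list's median. The 9 inhibitor genes have a median of 0.18 for viscosity in SC cells and of 0.02 for shTRPV4 cells against SC cells in viscous medium, where PABIR2 stands alone at 0.56.

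The genes whose log2 CPM followed PPP2R2C most closely over the 9 samples were PGPEP1 (Pearson r = 0.995), FBXW5 (0.994), DUSP6 (0.993), LIPH (0.993) and CTNNBIP1 (0.992). Their mean levels stepped down in the same order of groups. The step with viscosity in SC cells was called for DUSP6 and LIPH (edgeR adjusted p = 0.0266 and 0.0125). It was not called for PGPEP1, FBXW5 and CTNNBIP1 (adjusted p = 0.080, 0.226 and 0.107). DUSP6, a phosphatase of the kinase ERK, had a mean of 251 CPM in SC cells in baseline medium, 218 in SC cells in viscous medium and 147 in shTRPV4 cells. The genes closest to PPP2R5E were PUM2 (Pearson r = 0.998), INPP5A (0.983), FAF2 (0.983), KCTD12 (0.981) and FAT3 (0.979). PUM2, an RNA-binding repressor of translation, had mean levels of 109.7, 124 and 88.3 CPM, and FAT3, a large cadherin, of 5.14, 8.20 and 2.75 CPM. Both were called for viscosity in SC cells (edgeR adjusted p = 0.0213 and 0.0019). INPP5A, FAF2 and KCTD12 were not (adjusted p = 0.10, 0.10 and 0.09). These correlations were picked as the highest of all genes tested, and the 9 points share the 3 groups.

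Promoter windows of 300 bases, from 250 before to 50 after a RefSeq start, were matched for 8 of the 10 subunit genes, PPP2CB and PPP2R2A having no entry used here. GGGCGG was found on either strand in 7 of the 8, against 45% of 35116 windows of all genes, and CCAAT in 6 of the 8, against 34.6%. TGACG, the core of the cyclic AMP response element, was in the window of PPP2R5A alone (24.6% of all windows), and GGAATG, the motif of TEAD factors, was in 0 of the 8 (14% of all windows). Only the first listed window of each subunit gene was searched, whereas the shares over all genes count every window. The GC content of the 8 windows ran from 60 to 85.3%, against a median of 58.7% over all promoter windows. Matches are a description of these letters in these windows.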

How the data were processed

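Strand-specific poly(A) libraries of 9 samples were sequenced. Per the labels and the study's methods, the authors mapped reads to GRCh38.p13 with HISAT2 2.2.1, totalled exon reads per gene of Ensembl 104 with HTSeq 0.13.5 and deposited the counts without normalization, from 64571681 to 103518036 per sample. Groups and replicate numbers come from the sample titles. Of 60664 genes, 60463 were matched to a symbol.

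Counts were analysed in R 4.3.3 with edgeR 4.0.16 (TMM, filterByExpr, 1 coefficient per group, quasi-likelihood test, Benjamini-Hochberg over 18264 genes, threshold 0.05). The common biological coefficient of variation was 0.0633, and replicates differed by more than sampling noise. Exon lengths and positions come from GENCODE 44 on the same genome and promoters from RefSeq (GRCh38.p14). Shares were tested by exact permutation. Scripts were tested on simulated data.

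The 10 genes and the related lists were chosen with earlier results of these data known, and the study itself plotted some of them from these samples. All 10 are named, together with the 3 genes of each list with the smallest adjusted p in a comparison, apart from genes not reported here. Other list members named, the motifs and the promoters shown were chosen after values were seen. Alternatives were DESeq2 1.42.0, other scalings and filters, only the 6 samples of a comparison, a minimum of 0.2 on the absolute log2 fold change, the replicate number as a block, other lengths for the shares and leaving out each sample in turn. Canonical transcript length was added after seeing the data. Protein and hairpin sequences are not printed.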

Additional observations from a re-analysis of the deposited data

How the results depend on the processing

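The number of subunit genes called for viscosity in SC cells was 4 (19.3% of all genes), and 2 with a minimum of 0.2 on its absolute log2 fold change. The share of all genes past that minimum was not computed. The number ranged from 1 to 4 when a sample was left out, where 1409 to 4349 of all genes were called. For shTRPV4 cells against SC cells in baseline medium the number was 5 (42.4% of all genes), and 3 with that minimum. For shTRPV4 cells against SC cells in viscous medium it was 3 (20.0% of all genes), and 2 to 3 over all alternatives. In those without the minimum, 2179 to 3902 of all genes were called. The 7 shares kept their side of the threshold in every alternative, including other lengths and each sample left out. The share of PPP2R5C, which was not called, was slightly lower in SC cells in viscous medium than in baseline medium when counts were not divided by length (38.8 and 38.9%). With the replicate number as a block, 4, 3 and 5 subunit genes were called for viscosity, for shTRPV4 against SC cells in viscous medium and against baseline medium, as without it. Over all 18264 genes, 3475, 3607 and 7731 were called in these fits. Samples of the same number did not deviate together (correlations of -0.0546 to 0.0904, against -0.106 to 0.115 for different numbers), so the numbers give no pairing.

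Sign changes touched only log2 fold changes near 0 that were not called. For viscosity in SC cells PPP2CB was at 0.00726 with DESeq2 and 0.00211 with RLE scaling (-0.025 to 0.026 with a sample left out), PPP2R1A at 0.00909, 0.00399 and, without a filter, 0.00111 (-0.012 to 0.027), and PPP2R5A ranged from -0.0311 to 0.00908 with a sample left out. For shTRPV4 cells against SC cells in viscous medium, PPP2CA was at 0.000842 with DESeq2, 0.0025 with RLE scaling, 0.000921 without a filter and 0.000667 with at least 10 counts in every sample (-0.013 to 0.011 with a sample left out), and PPP2R1B ranged from -0.000666 to 0.089. PPP2R2A of shTRPV4 cells against SC cells in baseline medium was at 0.00182 with DESeq2 (-0.033 to 0.025 with a sample left out). The cause of these shifts was not tested. Intervals of about 0.1 to either side limit what the depth and the 3 replicates of a group can show.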
